A study of Homo sapiens with 20 samples.

Results

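The replication-dependent histone genes encode the core histones H2A, H2B, H3 and H4 and the linker histones H1 that are made when DNA is copied. In most eukaryotic transcripts the coding sequence is spliced from several exons and the mRNA ends in a poly(A) tail. The messages of these genes are different: they carry no intron and end at a short conserved stem-loop, which the stem-loop binding protein SLBP holds through processing, translation and decay. A transcript of this kind has only a short stretch of sequence after its stop codon, whereas N6-methyladenosine (m6A) in mammalian mRNA is known to be dense around stop codons and in long exons.

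Members were all protein-coding genes in the GENCODE annotation whose symbol was H1-1 to H1-6 or began with H2AC, H2BC, H3C or H4C followed by a digit. This gave 70 of 20046 protein-coding genes, namely 6 H1, 17 H2A, 19 H2B, 13 H3 and 15 H4 genes. A gene was counted as having a peak in a library when the summit of a peak, its highest point, lay in one of its exons.

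The peaks come from methylated RNA immunoprecipitation sequencing (MeRIP-seq) of T24, a cisplatin-sensitive human bladder cancer cell line, and T24R2, a resistant line derived from T24 by serial cisplatin exposure. Both are labelled as wild-type in genotype, grown in RPMI with serum and harvested on day 3, and per the study's methods T24R2 is kept in medium with cisplatin, which T24 is not. The comparison is of a resistant derivative with its parent line, so the 5 replicates do not sample independent cases of resistance, and selection and the drug in the medium cannot be told apart. Total RNA was pulled down with an anti-m6A antibody in 5 replicates of each line, and each of these IP libraries had an input library without antibody, 20 samples in all. The labels do not say whether replicates were separate cultures, so p-values measure only the spread between these samples. The 10 IP peak lists held 17203 to 33120 peaks, the longest being T24R2 replicate 5. They hold no read counts, so depth is unknown. Whether a gene was expressed, and whether the lines carry bladder markers, was not measured here.

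Nearly all members carried the sequence that defines the class. The histone 3′ stem-loop was found on the sense strand within 150 nt after the stop codon in 69 of 70 members and in 19 of 19976 other protein-coding genes (0.0951%), among them H2AX, H3-4 and H3-7. It began 23 to 68 nt after the stop codon (median 36). H2BC12L, on chromosome 21, was the member without a match. The stem-loops below are of the 4 genes that had a peak, of 1 H1 and 1 H2A gene, and of H2AX for comparison. They are on hg38, 5′ to 3′ on the gene's strand, with the stem-loop in capitals.
H2BC5 (chr6:26158582-26158607, +): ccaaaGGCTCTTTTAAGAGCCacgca
H2BC4 (chr6:26123467-26123492, -): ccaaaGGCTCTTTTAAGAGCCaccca
H3C11 (chr6:27871845-27871870, -): caaaaGGCTCTTTTCAGAGCCcctca
H4C15 (chr1:149860764-149860789, -): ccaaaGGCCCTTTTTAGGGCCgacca
H1-4 (chr6:26157090-26157115, +): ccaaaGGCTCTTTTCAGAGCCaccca
H2AC6 (chr6:26124664-26124689, +): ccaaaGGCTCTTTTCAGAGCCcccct
H2AX (chr11:119094893-119094918, -): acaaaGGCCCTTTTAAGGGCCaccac
The form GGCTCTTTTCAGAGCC occurred in 40 members, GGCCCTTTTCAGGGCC in 10 and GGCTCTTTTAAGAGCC in 9. A stem that opens with GGCCC was present in all 15 H4 genes and in 0 of the 54 H1, H2A, H2B and H3 genes with a match.

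Few of these genes had an m6A peak. Over all 10 libraries 4 of 70 members (5.71%) had a peak summit in an exon and 0 had one in every library, against 51.1% of all protein-coding genes. Other protein-coding genes with 1 exon in every transcript had a peak in 24.1% of 938 cases, and those with less than 1000 nt of exon in 7.12% of 379. Without olfactory receptor genes, which are many, short and of 1 exon, the last value was 12% of 217. The histone share was thus below each of these, by least against other short genes without introns. In bulk RNA, a transcript that few cells carry and one at a low level in every cell cannot be told apart, and S-phase cells were not sorted. No test was made between these shares, since genes are not replicates.

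The length of the genes moved with this result. Members had a median of 502.5 nt of exon, against 4429 nt in all other protein-coding genes, and 54 of 70 had less than 1000 nt. Under 500 nt, 0 of 34 members and 8.5% of 200 other protein-coding genes had a peak. From 500 to under 1000 nt the values were 2 of 20 members (10%) and 13.2% of 950 other genes. From 1000 to under 2000 nt they were 1 of 8 members (12.5%) and 24.5% of 2371, and from 2000 to under 4000 nt 1 of 6 (16.7%) and 43% of 5459. The share was thus lower for members than for other genes in each of these length ranges, but each rested on 0 to 2 members with a peak. The remaining members, H2BC15 and H2BC26, were longer and had none. Differences in expression between the groups were not tested.

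**Figure D1:**
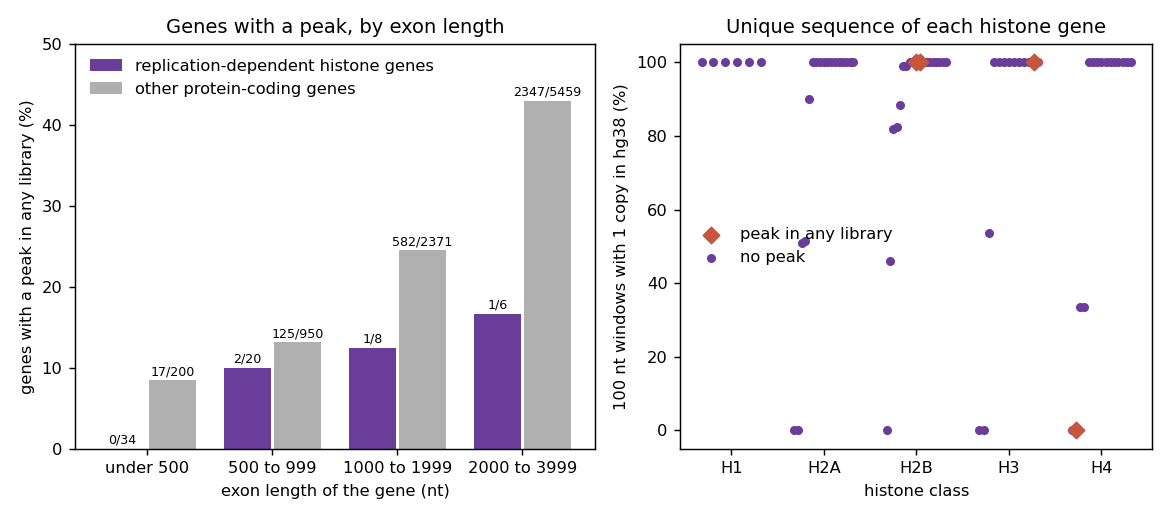
Left, percent of genes with a peak in any library by exon length (nt) for replication-dependent histone genes (purple) and other protein-coding genes (grey), with counts above the bars. Right, percent of 100 nt windows that occur once in hg38 for each histone gene, by class, with the 4 genes that had a peak as diamonds; most genes sit at 100%.

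Reads that fit several places were discarded by the authors, so the copy number of the sequence bears on what could be seen. In 51 of 70 members every window of 100 nt, from the 5′ end of the gene to 150 nt after the stop codon, occurred once in hg38, and 3 of these 51 had a peak. Of the other 19 members 1 had a peak. The 6 H1 genes were unique in every window of 50, 100 and 150 nt and had no peak. H2AC18, H2AC19, H3C14, H3C15, H4C14, H4C15 and H2BC12L had no unique window of 100 nt. The first 6 of these lie in the larger histone cluster on chromosome 1 and form pairs with identical coding sequences. A read of 100 nt that lies wholly inside such a stretch fits more than 1 place. Per the study's methods the reads were paired and of 150 nt. With windows of 150 nt H2AC20, H2BC6, H2BC12, H2BC15 and H2BC21 were unique throughout as well. The genes without a unique window of 100 nt had none of 150 nt either.

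The consensus of m6A, DRACH, was present in the coding sequence of all 70 members. In this motif of 5 bases the first is A, G or T, the second A or G, then come A and C, and the last is A, C or T. Counted on the sense strand with overlaps, members had 1 to 14 per coding sequence (median 4.5), the most in H1-1 and the fewest in H2BC3 and H2BC18. The median density was 1.27 per 100 nt of coding sequence, against 1.52 in other 1-exon genes and 1.95 in all other protein-coding genes. On the antisense strand the medians were 1.02, 1.51 and 1.46. By class, the sense density was 1.46 in H3, 1.43 in H1, 1.27 in H2A, 1.01 in H4 and 0.787 in H2B. H2B was the class with the most genes with a peak, but none of its peaks lay in the coding sequence. The part of motif density in the result was not tested.

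The 4 genes with a peak were H2BC5 and H2BC4, which encode H2B, H3C11, which encodes H3, and H4C15, which encodes H4. By class, 2 of 19 H2B genes (10.5%), 1 of 13 H3 genes (7.69%), 1 of 15 H4 genes (6.67%) and 0 of the 6 H1 and 17 H2A genes had a peak. Of 11 peaks in all, 10 lay outside the stem-loop form of the gene, taken as the stretch from the 5′ end of its main transcript to 150 nt after the stop codon. These 10 were in a second, distal exon that is annotated for an isoform of H2BC5, H2BC4 or H4C15 and that lies beyond the stem-loop. Of the 16 members with a spliced isoform in the annotation 3 had a peak, and of the 54 without one, 1 had.

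Read per length, the stem-loop forms carried very few peaks. They span 41193 nt in all and held 1 peak over the 10 lists, which is 0.243 peaks per 100 kb and library. The 28863 nt of member exon outside these forms held 10 peaks, or 3.46 per 100 kb and library. The value was 14.2 for other protein-coding genes, 16.5 for other 1-exon genes and 4.44 for those under 1000 nt. These are peak densities without regard to expression.

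H2BC5 was the member with a peak in the largest number of libraries, 7 of 10. This number fell to 5 with a −log10 q of at least 5, to 4 with the same number of peaks per list and to 1 with a −log10 q of at least 10. It had 1 peak in each of T24 replicates 1, 4 and 5 and T24R2 replicates 1, 3, 4 and 5, so 3 of 5 T24 and 4 of 5 T24R2 libraries (two-sided Fisher's exact p = 1). The 7 summits fell between chr6:26171072 and chr6:26171293, in the second of 2 exons of a protein-coding isoform (26170975 to 26171349, 375 nt, plus strand), where the annotation gives 3′ untranslated sequence. This exon begins 12425 nt after the stop codon on the genome, and every window of 50 nt in it is unique. The coding exon of H2BC5 held no summit in any library.

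The peaks of H2BC5 ranked from low to above the middle of their lists by fold, and lower by significance. The authors' fold enrichment of IP over input was 4.86, 7.81 and 5.58 in T24 replicates 1, 4 and 5 and 8.10, 5.44, 9.26 and 4.98 in T24R2 replicates 1, 3, 4 and 5. Ranked by fold within its own list, the peak stood at percentiles 18.2, 59.8 and 33.9 in T24 and 66.5, 35.2, 69.9 and 26.4 in T24R2. The lines overlapped, and the means were 37.3 ± 21 (SD, n = 3) and 49.5 ± 21.9 (SD, n = 4). By −log10 q all 7 peaks ranked below the middle of their lists, at percentiles of 1.84, 44.4 and 30.6 in T24 and 43.0, 20.9, 46.4 and 19.3 in T24R2. The libraries without a peak here were T24 replicates 2 and 3 and T24R2 replicate 2. Both replicates 2 held the shortest list of their line, with 17203 and 22671 peaks, but T24 replicate 3, with 21273, held more than T24 replicates 1 and 5 (20221 and 20681), which had the peak.

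The summits of H2BC5 fell into 2 places in the distal exon, and the sequence at each is shown because it holds the DRACH motif nearest to the summits (capitals). At the upstream place, the summit of T24 replicate 1 and T24R2 replicate 1 was the A of the motif itself. At the downstream place the summits of the other 5 libraries lay within 71 nt of each other, and the nearest motif was 4 to 34 nt from each; the motif shown, the only GGACT of the exon, is the one nearest to their median.
H2BC5 upstream (chr6:26171057-26171086, +): atctgcctgaaaaTGACTgtgtggatccca
H2BC5 downstream (chr6:26171244-26171273, +): cattacttgccatGGACTacctttgctaag
The exon holds 10 DRACH motifs on the sense strand and 11 on the antisense strand, so a motif near a summit is not particular to these places. The peaks were 173 to 391 nt wide, and those of 4 libraries began before the exon start.

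**Figure D2:**
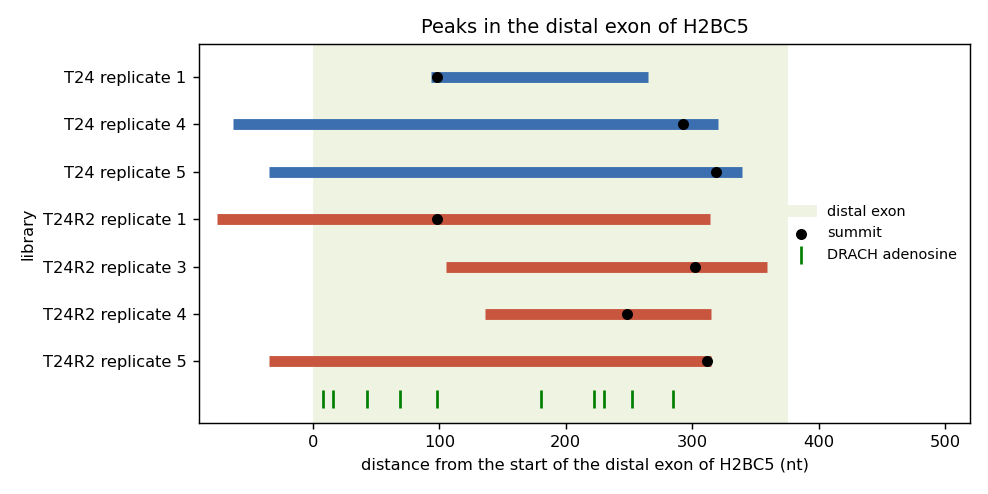
Extent (bars) and summit (black points) of the H2BC5 peak in the 7 libraries that had one, T24 in blue and T24R2 in red, in nt along the distal exon (shaded, 375 nt), whose first base counts as 1; green marks are the adenosines of the 10 sense DRACH motifs. Summits sit at position 98 in 2 libraries and between 248 and 319 nt in the other 5.

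H2BC4 had the same arrangement in fewer libraries. It had a peak in T24 replicate 4 (fold 6.40, percentile 44.6) and in T24R2 replicate 4 (fold 5.12, percentile 24.5), and none in the other 8 libraries. Both summits lay in the distal second exon of a protein-coding isoform on the minus strand (26114873 to 26115135, 263 nt), which begins 8389 nt after the stop codon. The exon holds 12 DRACH motifs on the sense strand and 1 on the antisense strand, and the one nearest to the median summit is in capitals.
H2BC4 (chr6:26114997-26115026, -): tggaggtattttGAACAatcaaagaaggac
All windows of 50 nt in this exon are unique. In T24R2 replicate 5 a further peak (fold 7.06) touched another exon of H2BC4, but its summit lay 356 nt away, in an exon of HFE on the other strand, and the lists carry no strand.

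H4C15 had a peak in T24 replicate 4 alone (chr1:149859158-149859289, fold 4.82, percentile 21.4). Its summit lay in the second exon of an isoform annotated for nonsense-mediated decay (149859185 to 149859681, 497 nt, minus strand). The motif nearest to the summit is 12 nt away.
H4C15 (chr1:149859200-149859229, -): ggggcttgtgtcGGACTctgaataaagagc
This exon is identical over its 497 nt to an exon of H4C14 (149834135 to 149834631, plus strand), which held no peak, and 0% of its windows of 50, 100 or 150 nt are unique. The peak reached past the end of the exon, and which of the 2 genes gave its reads was not tested. In T24R2 replicate 5 a peak of fold 6.08 overlapped the H4C15 exon, with its summit 23 nt outside it.

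H3C11 had the only peak in a stem-loop form. It was found in T24 replicate 3 alone, at chr6:27872152-27872228 (77 nt wide, minus strand of the gene), in the coding sequence and 247 nt before its end. The fold was 2.26, the −log10 q was 2.11 against a lowest value of 2.00 in any list, and the fold percentile was 0.63, so this was among the weakest peaks of its library. No DRACH motif lay within 50 nt of the summit on either strand. The 80 nt of coding sequence around the summit hold no capitals for that reason.
H3C11 (chr6:27872112-27872191, -): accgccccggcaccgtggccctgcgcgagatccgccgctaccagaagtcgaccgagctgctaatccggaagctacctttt

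DRACH was present on the sense strand within 50 nt of 10 of the 11 histone summits (90.9%) and on the antisense strand of 7 (63.6%). At 147226 exonic summits of other protein-coding genes the shares were 71.5% on the antisense strand and 132446 of 147226 on the sense strand. A motif this near is common at any exonic summit.

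**Figure D3:**
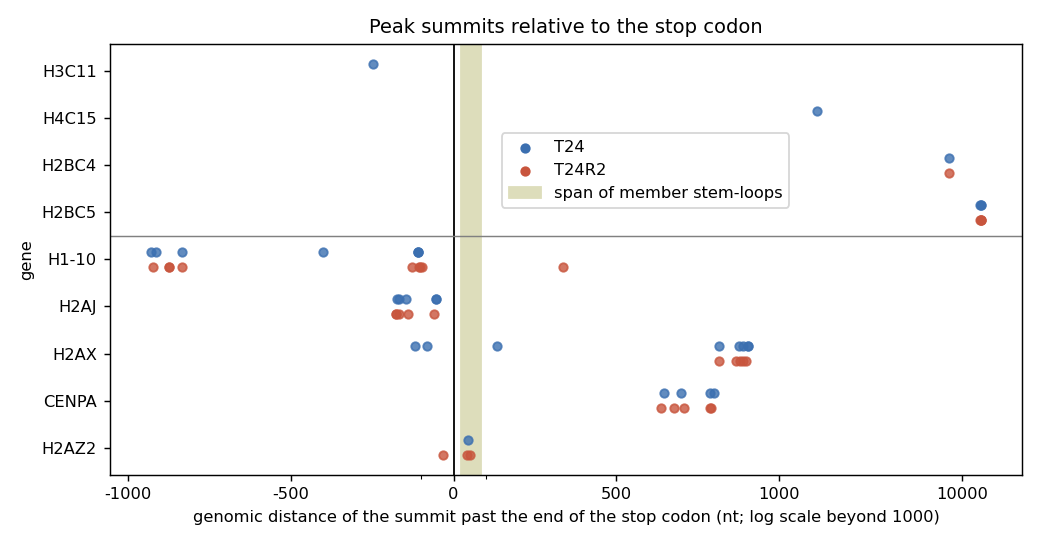
Genomic distance in nt of each peak summit past the end of the stop codon, linear to 1000 and logarithmic beyond, for the 4 replication-dependent histone genes with a peak (above the line) and 5 replication-independent ones, T24 in blue and T24R2 in red; the shaded band is where member stem-loops lie. In H2BC5, H2BC4 and H4C15 all summits are more than 1000 nt past the stop codon.

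In the other 66 members no library had a summit in an exon. In the H1 class these were H1-1, H1-2, H1-3, H1-4, H1-5 and H1-6. In the H2A class they were H2AC1, H2AC4, H2AC6, H2AC7, H2AC8, H2AC11, H2AC12, H2AC13, H2AC14, H2AC15, H2AC16, H2AC17, H2AC18, H2AC19, H2AC20, H2AC21 and H2AC25. H2BC1, H2BC3, H2BC6, H2BC7, H2BC8, H2BC9, H2BC10, H2BC11, H2BC12, H2BC12L, H2BC13, H2BC14, H2BC15, H2BC17, H2BC18, H2BC21 and H2BC26 were the H2B genes without a peak. For H3 they were H3C1, H3C2, H3C3, H3C4, H3C6, H3C7, H3C8, H3C10, H3C12, H3C13, H3C14 and H3C15, and for H4 they were H4C1, H4C2, H4C3, H4C4, H4C5, H4C6, H4C7, H4C8, H4C9, H4C11, H4C12, H4C13, H4C14 and H4C16. Within 1000 nt of a stem-loop form, 3 members had a peak in any library: H3C11 itself, its neighbour H4C13 through the same peak, and H4C14, with peaks 218 nt away in T24 replicate 4 and 550 nt away in T24R2 replicate 4 that lay in no annotated exon. Within 10000 nt there were 16 such members.

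Peaks were called in the same stretches of genome outside the histone genes. Of the other protein-coding genes there, 2 of 8 in the proximal cluster on chromosome 6 and 2 of 4 in the distal one had a peak in any library. In the larger cluster on chromosome 1 it was 1 of 2, BOLA1, whose peaks lay beyond the stretch. The share of all protein-coding genes was 51.1%. The proximal cluster on chromosome 6 (25723397 to 26285638) holds 34 members and had 5 to 11 peaks per library, 79 in all, of which 9 were histone peaks. HFE, which regulates iron uptake, and TRIM38, a ubiquitin ligase, lie in it and had a peak in all 10 libraries, at mean fold percentiles of 69.3 ± 9.11 and 60.9 ± 29.3 in T24 and 71.2 ± 17.5 and 82.8 ± 8.09 in T24R2 (SD, n = 5 each). The distal cluster on chromosome 6 (27125897 to 27893891) holds 21 members and had 7 to 12 peaks per library, 90 in all, of which 1 was a histone peak. There the zinc finger gene ZNF184 had a peak in all 10 libraries, at 91.1 ± 10.6 and 90.7 ± 5.08. The 11 members of the larger cluster on chromosome 1 (149782689 to 149887965) lie in a stretch with 0 to 2 peaks per library. The stretch held 4 peaks over all lists, of which 1 was a histone peak. BOLA1, which overlaps only the end of this stretch and extends beyond it, had a peak in all 10 libraries, each outside the stretch. No peak fell within the stretch of H2AC25 and H2BC26 on chromosome 1 or within the genes H4C16 on chromosome 12 and H2BC12L on chromosome 21. The nearest peak to the stem-loop form of H4C16 was 3278 nt away, and all 10 libraries had one within 5000 nt of it. These nearest peaks were those of H2AJ, a replication-independent histone gene taken up below.

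The lines were compared next, to ask whether methylation of histone transcripts differed between sensitive and resistant cells. The number of members with a peak was 1, 0, 1, 3 and 1 in T24 replicates 1 to 5 and 1, 0, 1, 2 and 1 in T24R2 replicates 1 to 5. Means were 1.2 ± 1.1 and 1 ± 0.707 genes (SD over 5 libraries each). The difference, -0.2 genes for T24R2 minus T24, had p = 1 by an exact permutation test, two-sided, and the lines overlapped. With counts tied as often as these, no split of the libraries gives a p under 0.05, so the test could not have found a difference. The library with the most, T24 replicate 4, had H2BC4, H2BC5 and H4C15.

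**Figure D4:**
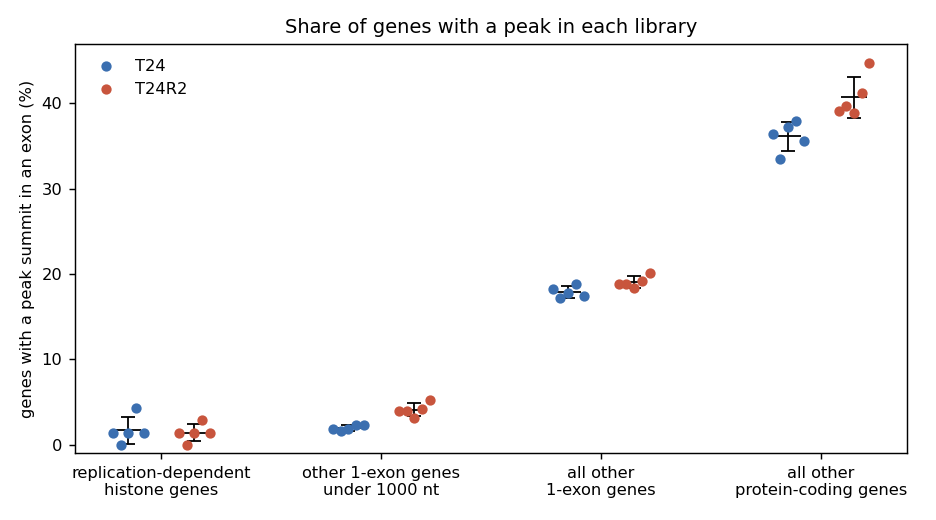
Percent of genes with a peak summit in an exon in each library (points), with the mean and SD (bars, n = 5 libraries per line), for 4 groups of genes; T24 in blue and T24R2 in red. Histone genes range from 0% to 4.29%, against 1.58% to 5.28% of other 1-exon genes under 1000 nt and 33.4% to 44.7% of all other protein-coding genes.

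Each library had as many histone peaks as genes with a peak, so their number per library had the same values and the same p. As a share of all peaks, those of T24 made up 0.00552 ± 0.00473% and those of T24R2 0.00384 ± 0.00280% (SD over 5 libraries; p = 0.532 by exact permutation). Over the libraries with a histone peak, the median fold percentile of these peaks was 24.3 ± 19.2 for T24 and 43.8 ± 17.3 for T24R2 (SD over 4 libraries each; p = 0.2 by exact permutation). The share in the coding sequence was 100% in T24 replicate 3, through H3C11, and 0% in the other 7 libraries with a histone peak (exact permutation p = 1). By class, the difference was 0.2 genes for H2B and -0.2 for H3 and for H4, and the adjusted p over the 5 classes was 1 for each class (exact permutation tests). Without ties, the smallest p that 5 against 5 libraries allow is 0.00794, and for 4 against 4, as in the percentile, it is 0.0286. The counts of members, histone peaks and H2B genes are tied so often that no split of the libraries gives a p under 0.05. The coding share and the H3 and H4 counts differed from 0 in a single library each, and H1 and H2A in none. For these every split gives a difference of the same size, so the tests could not have found one between the lines.

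No member passed a test of single genes. Presence of a peak was compared by Fisher's exact test over 10237 protein-coding genes with a peak in any library, 4 of them members. After Benjamini-Hochberg adjustment of these exact tests 0 genes passed 0.05 (smallest adjusted p = 0.203), while 827 had an unadjusted p under 0.05, in 594 (5.8%) with more T24R2 libraries and in 233 (2.28%) with more T24 libraries. None of the 4 members was among the 827, and all 4 had an exact p = 1. A gene with a peak in fewer than 4 or more than 6 of the 10 libraries cannot reach an unadjusted p under 0.05, which holds for each of them. The fold percentile could be compared only for 5514 genes with a peak in all 10 libraries, which include no member.

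Replication-independent histones had peaks in a larger share of genes than the members. Most of them are not tied to S phase and come from spliced and polyadenylated transcripts. Of 11 such genes 7 had a peak in any library (63.6%) and 3 had one in all 10 (27.3%), against 51.2% and 27.6% of the 19976 protein-coding genes that are not members, so the share in all 10 libraries was near the background. Their median exon length was 3332 nt, between that of the members and that of all other protein-coding genes, and the comparison is given without a test. H1-10 (H1.X), H2AX and H2AJ had a peak in every library. The list is not uniform, since the peaks of H1-10 lay in a transcript of 1 exon and H2AX also carries the stem-loop. CENPA, the centromeric H3 variant, had one in 4 T24 and all 5 T24R2 libraries. H2AZ2 had one in 1 T24 and 3 T24R2 libraries, and MACROH2A1 and MACROH2A2 each in 1 T24R2 library. H2AZ1, H3-3A, H3-3B and H3-5, with exon lengths of 1114 to 6134 nt, had none.

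H2AX, which marks DNA double-strand breaks once phosphorylated, is of use here because its gene makes both a stem-loop form and a longer polyadenylated form. Its strongest peak in each library had its summit 816 to 906 nt after the stop codon, well past the stem-loop, which begins 50 nt after it. These peaks were wide, from 687 to 1417 nt, and in 7 of 10 libraries they reached into the coding sequence. Separate, weaker peaks in the coding sequence were called in T24 replicates 1 and 5, and one 135 nt after the stop codon in T24 replicate 2. The fold percentile of the strongest peak was 66.2, 47.9, 10.2, 67.7 and 4.33 in T24 replicates 1 to 5 and 77.4, 57.4, 48.5, 91.2 and 69.7 in T24R2 replicates 1 to 5. The lines overlapped, and the difference of 29.6 points did not pass the test (unadjusted exact permutation p = 0.0952, adjusted p = 0.439 over 5514 genes). The sequence is the DRACH motif nearest to the median of the summits past the stem-loop, on the minus strand, with the motif in capitals.
H2AX (chr11:119094037-119094066, -): ttcccttccagcAAACTcaactcggcaatc

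H2AJ, an H2A variant on chromosome 12, had summits in the coding sequence, where only H3C11 among the members had one. All its 10 summits lay in the coding sequence, 54 to 176 nt before its end. The fold percentile was 3.05, 11.5, 7.12, 25.3 and 3.54 in T24 replicates 1 to 5 and 15.2, 19.3, 6.39, 17.2 and 68.7 in T24R2 replicates 1 to 5, so most of these peaks were low by fold. By −log10 q they ranked higher, at percentiles of 24.3 to 79.5 in T24 and 41.8 to 87.6 in T24R2. The lines overlapped, and the difference of 15.3 points in the fold percentile did not pass the test (unadjusted exact permutation p = 0.214, adjusted p = 0.591).

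H1-10, a linker histone variant, had a percentile of 8.03 ± 7.39 across the T24 and 29.1 ± 17.5 across the T24R2 libraries (SD over 5; exact permutation p = 0.0556 unadjusted, 0.348 adjusted). Over all genes with a peak in all 10 libraries, 11.3% were higher in T24R2 and 3.14% higher in T24 at an unadjusted exact permutation p under 0.05, and 0 after adjustment (smallest adjusted p = 0.163). None of H1-10, H2AX and H2AJ was among them.

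**Figure D5:**
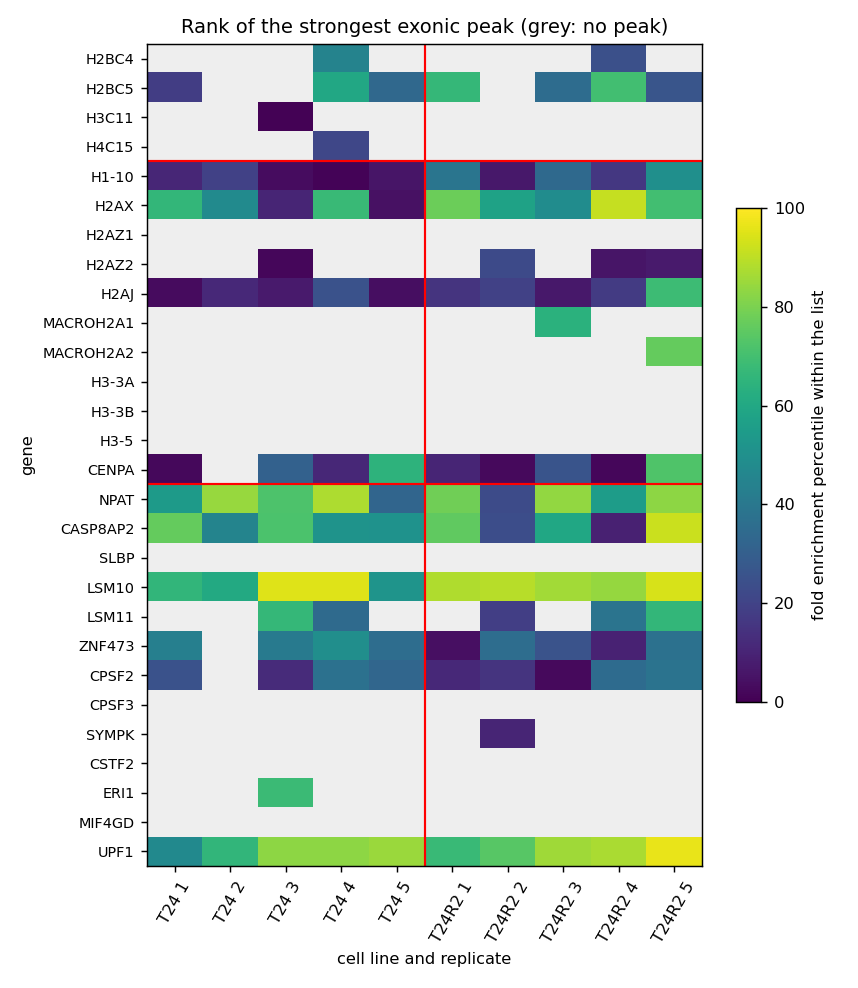
Fold enrichment percentile, within its own list, of the strongest exonic peak of each gene (rows) in each library (columns), with grey for no peak; red lines part the 4 replication-dependent histone genes with a peak, 11 replication-independent histones and 13 factors of histone mRNA, and T24 from T24R2. H2BC5 is filled in 7 libraries, and H1-10, H2AX, H2AJ, NPAT, CASP8AP2, LSM10 and UPF1 in all 10.

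The transcripts of factors that make and destroy histone mRNA were examined last. Of 13 genes 9 had a peak in any library (69.2%) and 4 in all 10 (30.8%), the latter again near the 27.6% of other protein-coding genes, with a median exon length of 6567 nt. NPAT, the coactivator of histone gene transcription at the start of S phase, had a peak in all 10 libraries, at a fold percentile of 66.3 ± 22.9 for T24 and 64.7 ± 26.2 for T24R2 (SD over 5 libraries each). CASP8AP2, a component of the histone locus body, was at 59.1 ± 13.9 and 52.0 ± 34.9, and UPF1, a helicase needed for the decay of histone mRNA, was at 72.8 ± 16.3 and 82.4 ± 11.4. LSM10, a subunit of the U7 particle that cleaves the 3′ end, was at 73.7 ± 20.2 and 88.3 ± 3.68. None of these 4 passed 0.05 even without adjustment (exact permutation p = 0.913, 0.690, 0.325 and 0.167, respectively; adjusted p from 0.546 to 0.979).

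Within the cleavage machinery presence varied. ZNF473, a U7-associated zinc finger protein, and CPSF2 of the cleavage complex had a peak in 4 T24 and 5 T24R2 libraries, and LSM11, the partner of LSM10, in 2 and 3. SYMPK, the scaffold of the complex, had a peak in 1 T24R2 library, and ERI1, an exonuclease that trims the stem-loop end, in 1 T24 library. SLBP itself, CPSF3, the endonuclease, CSTF2 and MIF4GD, a translation partner of SLBP, had none.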

How the data were processed

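MeRIP-seq peak lists of 10 IP libraries (5 T24, 5 T24R2) were analysed; the 10 inputs served only the authors' peak calling. Per the study's methods the authors aligned reads to hg38 with STAR 2.7.0 and GENCODE 39, kept unique reads without duplicates (SAMtools 1.10) and called peaks of IP over input in each library with MACS2 (3.0.0a6 in the submitters' processing notes), with an extension size of 100. Discarding reads that fit several places removes signal from identical histone copies. The deposited fold enrichment is a ratio of IP over the local background, as the authors' caller gave it. Deposited −log10 p-values and q-values and the score made from q were used at most to rank or filter peaks. The authors' merged region list was not used.

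Histone genes, exons and sequences came from GENCODE 44 on hg38. Every gene with an exon under the summit received the peak, whatever its strand. Percentiles are ranks of fold within a list. Values per library were compared by two-sided exact permutation over 252 assignments (70 where 4 libraries of each line had a value), presence by Fisher's exact test, and gene tests were adjusted by Benjamini-Hochberg over all protein-coding genes tested (Python 3.11.15, numpy 2.4.6, scipy 1.17.1). Copies of 50, 100 and 150 nt windows were counted on both strands over 194 sequences of hg38. Genes named were members with a peak in all 10 libraries or an unadjusted Fisher p under 0.05 (none of either), in each class the member with most libraries, and all members without a peak, and 2 comparison lists, of which 1 gene is not reported here; other members with a peak and neighbours of the clusters were named after their values were seen. The members and lists were chosen with earlier results of these data known.

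Alternatives were −log10 q of at least 5 or 10, a fold of 4 or more, lists cut to 17203 peaks each, any overlap of at least 1 bp, the stem-loop form only, summits in 1 gene only, percentiles of −log10 q, a replicate block and each library left out.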

Additional observations from a re-analysis of the deposited data

Results flagged for a closer look

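In T24, the share of histone peaks in the coding sequence was 100% in replicate 3 and 0% in replicates 1, 4 and 5. The gap of replicate 3 to the others was 1 of the whole range, past Dixon's critical value. It rests on the single weak peak of H3C11. In T24R2, replicate 5 held 33120 peaks, and its gap to the next library was 0.719 of the whole range, where Dixon's critical value is 0.71. It had 1 member with a peak, H2BC5, as had replicates 1 and 3. Of 11 groups examined 2 stood apart in this way, and chance gives this in about 1 of 20 for values that vary smoothly. The coding share does not vary smoothly. T24 replicates 1, 3 and 5 held 1 histone peak each, so their share could only be 0% or 100%.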

How the results depend on the processing

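The count of members with a peak in any library, 4, fell to 2 with a −log10 q of at least 5 (H2BC4 and H2BC5) and with the same number of peaks per list (H2BC4 and H2BC5), to 1 with a −log10 q of at least 10 (H2BC5) and to 1 in the stem-loop form only (H3C11). These alternatives for that count were chosen after seeing the data. With each library left out it was 3 to 4: T24 replicate 3 decides H3C11 and T24 replicate 4 decides H4C15. None of 177 values of the line comparisons passed 0.05 under any alternative. Many of them could not have passed, so this count says little about whether the lines differ. H1 and H2A genes had no peak under any setting, and H3, H4 and the coding share rested on too few libraries. The differences in members with a peak and in histone peaks per library (T24R2 minus T24) were both 0.2 with a −log10 q of at least 10, 0.2 with any overlap, and -0.5 to 0.25 with each library left out, where T24 replicate 4 gave 0.25 and T24R2 replicate 2 gave 0.05. The share of all peaks gave 0.00126 percentage points with a −log10 q of at least 10 and -0.00306 to 0.00022 with each library left out (0.00022 without T24 replicate 4). For H2B genes the difference was -0.2 with the same number of peaks and -0.05 to 0.5 with each library left out (-0.05 without T24R2 replicate 4). These directions changed between values that all rest on 0 to 3 genes per library.

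Same-numbered libraries did not deviate together in gene presence (correlations -0.011 to 0.0169), so the numbers were not taken as pairs. The small counts of members with a peak did run alike by number, however. Both replicates 2 had 0, and both replicates 4 had the most of their line, 3 in T24 and 2 in T24R2. In a replicate block of these numbers the difference in members with a peak stayed at -0.2 (exact sign-flip p = 1). Only the replicates 4 differed in this count, so the sign flips could give no other p. The difference in the share of all peaks stayed at -0.00168 percentage points (exact sign-flip p = 0.125, against 0.532 by unblocked exact permutation). Because 5 pairs cannot give a p below 0.0625, no count of single genes was made with the block. No median percentile or coding share could be had with a −log10 q of at least 10 or in the stem-loop form, where fewer than 2 libraries of a line had a peak. Depth is unknown, so an absent peak cannot be told apart from an unexpressed gene or one covered too thinly.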
